A study of Mus musculus with 8 samples.

Results

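The caudal homeobox genes Cdx1, Cdx2 and Cdx4, the homeobox genes Gbx2 and Evx1, and the T-box genes T and Tbx6 encode transcription factors of the posterior end of the embryo. All probes with one of these 7 gene names were taken, 8 probes of the 55681 on the array, which carries 36406 gene names. Messenger RNA from mouse embryonic stem cells, 6 days into neural induction, had been measured on 8 single-colour Agilent arrays. The labels call all 8 samples radial-glia-like neural progenitor cells (RGC-like NPC). The 4 control samples carried a control short hairpin RNA and the 4 knockdown samples one against Zrf1, a ribosome-associated chaperone that also binds ubiquitylated histone H2A and is now named Dnajc2. No other allele or agent is given, and the labels do not say whether the 4 samples of a group came from separate cultures, so the p-values measure the spread between these samples, which may be technical.

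At the tail end of the embryo, a pool of axial progenitors gives rise to both spinal cord and paraxial mesoderm. Wnt and Fgf signals maintain this pool, T and the Cdx factors are active in it, and the Cdx factors activate the Hox genes that pattern the trunk. Tbx6 drives descendants of the pool towards presomitic mesoderm at the expense of neural fate. Gbx2 positions the boundary between midbrain and hindbrain, and Evx1 acts in the primitive streak and tail bud and later in V0 interneurons of the spinal cord.

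Cdx1 and Cdx2 fell steeply in the knockdown samples, 10.7-fold and 16.3-fold, the latter 7.31-fold with another background correction and with 1 knockdown array not well above background. Tbx6 rose 2.48-fold with one of its probes and did not pass the test with the other. Gbx2 was bright in both groups and did not pass the test. Cdx4 and Evx1 were well above background on no array, and T on 1 control array only, so no change is given for these 3 genes.

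The arrays read each transcript through probes of 60 bases, and the last 30 bases of 4 of them show what was measured. They are given 5′ to 3′ in the sense of the transcript, and capitals mark AATAAA, the signal for cleavage and polyadenylation, which 10.1% of all 55681 probes hold. Both Tbx6 probes are shown because only 1 of them passed the test. They lie at different places of 1 transcript, starting at its bases 1652 and 1480.
Cdx2, A_52_P177490: tagagaagttgtatggtgaagggaagtcgg
Gbx2, A_51_P179578: gggctacagccacaccagaagatacactaa
Tbx6, A_55_P2061273: agtatttttgttAATAAAactccaaagaca
Tbx6, A_55_P2061275: agctcaggcaaggcagctctgagtccagct

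On mouse genome build mm9, the build of the file headers, the Cdx2 probe lies on the minus strand at chr5:148112547-148112606 and the Gbx2 probe on the minus strand at chr1:91825013-91825072. The Tbx6 probes lie on the plus strand at chr7:133929000-133929059 (A_55_P2061273) and chr7:133928828-133928887 (A_55_P2061275). The former is called the 3′ probe here and the latter the 5′ probe. The probes of Cdx4 (chrX:100525392-100525451), Evx1 (chr6:52268298-52268357) and T (chr17:8635302-8635361) are on the plus strand. The Cdx1 probe, A_55_P2157205, lies on chromosome 18. Which exon or UTR each probe falls in was not analysed here.

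Levels below are log2 of the processed signal minus the 75th percentile of that array, so 0 is the 75th percentile and levels of different probes are not compared. Changes are knockdown minus control. On each array between 53.4% and 60.3% of 59305 spots were well above background and none was saturated. A probe was tested if every array of 1 group or of both showed it well above background, which held for 29077 probes, and the number of arrays limits the precision. The arrays came from 3 slides, each with samples of both groups. The targeted gene, Dnajc2, was 18.3-fold lower (limma adjusted p = 1.39e-07), from 1.87 ± 0.11 in control to -2.32 ± 0.23 in knockdown arrays (SD, n = 4), and 11.3-fold lower with normexp background correction and quantile normalization. All 13 neural progenitor markers examined passed this filter. In knockdown arrays 11 of the 13 were lower and 1 higher, among them the Notch effector Hes5, 16.2-fold lower, Dach1, 5.48-fold, and the neural factor Sox1, 5.24-fold. Of 12 pluripotency genes 8 were lower and 2 higher. The self-renewal factors Nanog, Esrrb and Prdm14 (dim on 1 knockdown array) were 5.44-fold, 3.42-fold and 10.4-fold lower. Prdm14 was 4.63-fold lower with normexp and quantile normalization. Fgf4 and Klf4 were 1.52-fold and 1.5-fold higher (limma adjusted p = 0.000237 and 0.000347), and Pou5f1 and Tbx3 did not pass the test.

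Of the 8 member probes 5 were tested, from 4 of the 7 genes, and 2 were called lower and 1 higher at a limma adjusted p under 0.05. Across all tested probes 57.1% were called, 28.1% lower and 29.0% higher, so a call by itself does not set a gene apart in this comparison. The groups did not overlap for 3 of the 5 tested member probes and for 54.1% of all tested probes, 26.7% with knockdown lower and 27.4% with knockdown higher. By the size of the change only Cdx1 and Cdx2 stood far from most probes. Of all tested probes, 0.268% had a lower change than Cdx1 and 0.141% a lower change than Cdx2. The share with a lower change was 93.4% for the 3′ probe of Tbx6, 74.1% for its 5′ probe and 53.8% for Gbx2. In bulk samples, fewer cells that express a gene and less of its RNA per cell cannot be told apart.

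**Figure D1:**
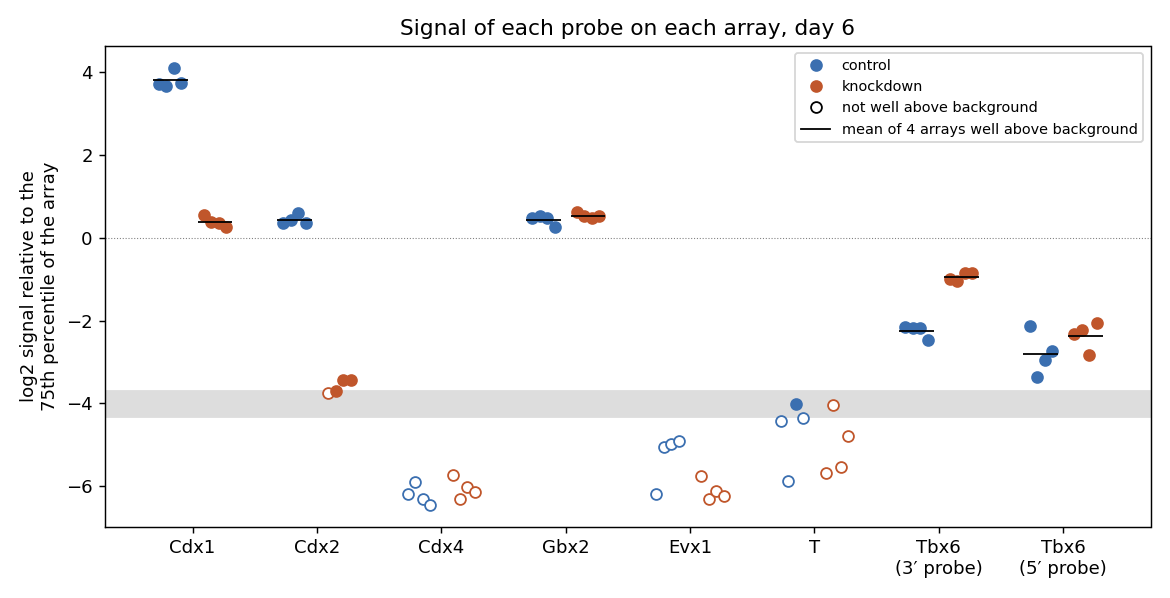
Log2 signal of each of the 8 probes on each array (vertical axis, relative to the 75th percentile of the array) for 4 control and 4 knockdown samples. Filled points are well above background, open points are not, black lines are means of 4 arrays and the grey band spans the lowest signal well above background on each array. Cdx1 and Cdx2 separate widely between groups, Gbx2 overlaps, and Cdx4, Evx1 and most T points are open.

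Cdx1 is a direct target of Wnt and retinoic acid signals and helps to set vertebral identity. Its level was 3.71, 3.68, 4.11 and 3.75 in control samples 1 to 4 and 0.56, 0.38, 0.36 and 0.27 in knockdown samples 1 to 4. The groups lay far apart, and within each group the samples stood close together except control 3, which was the highest. The change was -3.42 (SE 0.11, 95% interval -3.68 to -3.16), 10.7-fold lower (limma adjusted p = 2.3e-07). Cdx1 remained well above background on every knockdown array, so its messenger RNA was reduced and still measurable. Within the slides the change was -3.12, -3.56 and -3.44.

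Cdx2 is needed for the trophoblast of the blastocyst, for elongation of the body axis and later for the intestinal epithelium. Its level was 0.37, 0.44, 0.60 and 0.35 in the control samples and -3.75, -3.71, -3.44 and -3.43 in the knockdown samples. All control samples were above all knockdown samples, and knockdown 1 was not well above background. The change was -4.03 (SE 0.10, 95% interval -4.27 to -3.79), 16.3-fold lower (limma adjusted p = 8.12e-08). The knockdown signal lay near background, and the change was -2.87 (7.31-fold lower) with normexp background correction and quantile normalization. Within the slides it was -4.19, -4.05 and -3.80.

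Cdx4, the X-linked member of the family and a Wnt target in the tail bud, was dim on all 8 arrays. Its processed intensity ran from 6.98 to 9.62 units, while the lowest intensity well above background was between 30.8 and 43.4 units depending on the array. No control or knockdown sample stood out. Neither group gave a measurable level of Cdx4, so a difference below this limit could not be seen. Of the Cdx family, then, 2 of 3 members were measurable and both were lower.

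The falls of Cdx1 and Cdx2 were compared as a within-array difference of their log2 signals. This difference was 3.37 ± 0.11 in control and 3.98 ± 0.28 in knockdown samples (SD, n = 4), so the estimated fall of Cdx2 was larger by 0.61. The exact two-sided permutation test over arrays gave p = 0.0286, the smallest that 4 against 4 samples allow, and 0.0571 after Benjamini-Hochberg adjustment over the 2 probe pairs compared, which misses the threshold. With normexp and quantile normalization the order turned, to -0.34. These data do not rank the falls of the 2 genes.

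**Figure D2:**
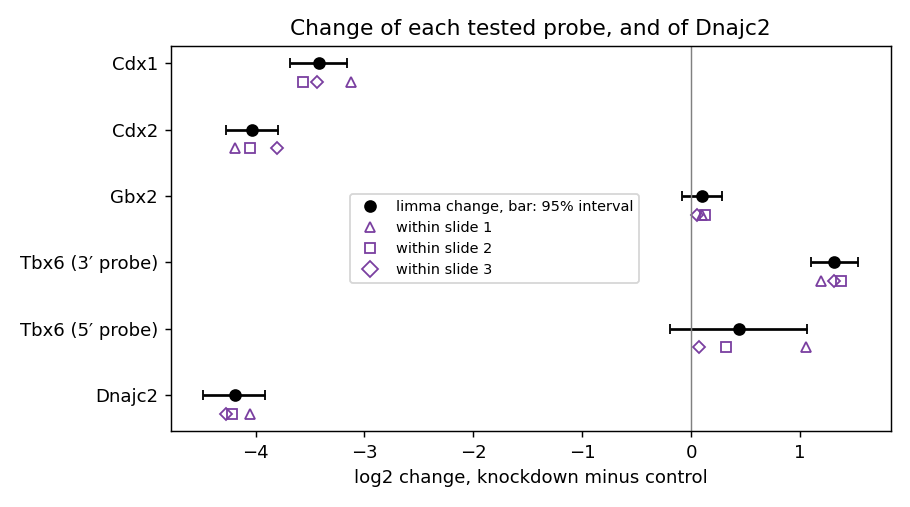
Log2 change (horizontal axis, knockdown minus control) of the 5 tested probes and of the targeted gene Dnajc2. Black points are limma estimates with 95% intervals, and open symbols are the changes within each of the 3 slides. Within the slides Cdx1 lies between -3.56 and -3.12 and Cdx2 between -4.19 and -3.80. The interval of Gbx2 and of the 5′ probe of Tbx6 includes 0.

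Gbx2 encodes a homeodomain factor that opposes Otx2 at the border of midbrain and hindbrain and is also active in the epiblast and in embryonic stem cells. Its level was 0.47, 0.53, 0.49 and 0.27 in control and 0.62, 0.53, 0.48 and 0.53 in knockdown samples. The groups overlapped, with control 4 the lowest of the 8. The change of 0.10 (SE 0.08) did not pass the limma test (adjusted p = 0.309), and its 95% interval ran from -0.08 to 0.28. The sign itself depends on the scaling, since the change was -0.07 when arrays were scaled by the median (limma adjusted p = 0.683). The interval places any change of Gbx2 well short of those of Cdx1 and Cdx2.

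Evx1, a target of Wnt and Bmp signals in the posterior streak, stayed dim on all 8 arrays. Its processed intensity was 8.98, 17.3, 21.1 and 20.2 units in control and 8.91, 8.80, 8.13 and 7.03 units in knockdown samples. In intensity every control sample was above every knockdown sample, control 1 only narrowly. As log2 levels relative to each array, control samples 2 to 4 were still above every knockdown sample. Control 1, at -6.2, was then below knockdown 1 (-5.76) and knockdown 3 (-6.11). All intensities were under the lowest that counted as well above background. No fold is given, and without the filter on dim probes the limma adjusted p was 0.0917.

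T, or Brachyury, is the classic marker of the primitive streak, notochord and axial progenitors. Its intensity was 30.8, 9.83, 41.6 and 30.1 units in control and 9.38, 42.3, 12.1 and 19.0 units in knockdown samples. Control 3 alone was well above background, and the groups overlapped. Without the filter the limma adjusted p was 0.672 for T and 0.581 for Cdx4.

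Tbx6 represses neural fate in the paraxial mesoderm lineage. With the 3′ probe its level was -2.15, -2.18, -2.19 and -2.46 in control and -0.99, -1.05, -0.85 and -0.85 in knockdown samples. Every knockdown sample was above every control sample, of which control 4 was the lowest. The change was 1.31 (SE 0.09, 95% interval 1.10 to 1.53), 2.48-fold higher, with a limma adjusted p of 7.67e-06, and 1.19, 1.38 and 1.31 within the slides. With normexp and quantile normalization it was 0.84, or 1.79-fold.

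With the 5′ probe of Tbx6 the level was -2.13, -3.37, -2.94 and -2.74 in control and -2.33, -2.23, -2.82 and -2.06 in knockdown samples. The groups overlapped, and control 1 was higher than 3 of the 4 knockdown samples. The change of 0.44 (SE 0.27, 95% interval -0.19 to 1.06) did not pass the limma test (adjusted p = 0.206). Without control 1 it was 0.66 and passed (limma adjusted p = 0.0373). Within the slides it was 1.05, 0.32 and 0.07. The changes of the 2 Tbx6 probes differed by 0.88, with an exact two-sided permutation p of 0.0571 and the same value after adjustment, so their difference did not pass either. The rise of Tbx6 therefore rests on its 3′ probe, and which transcript ends each probe reads was not tested.

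**Figure D3:**
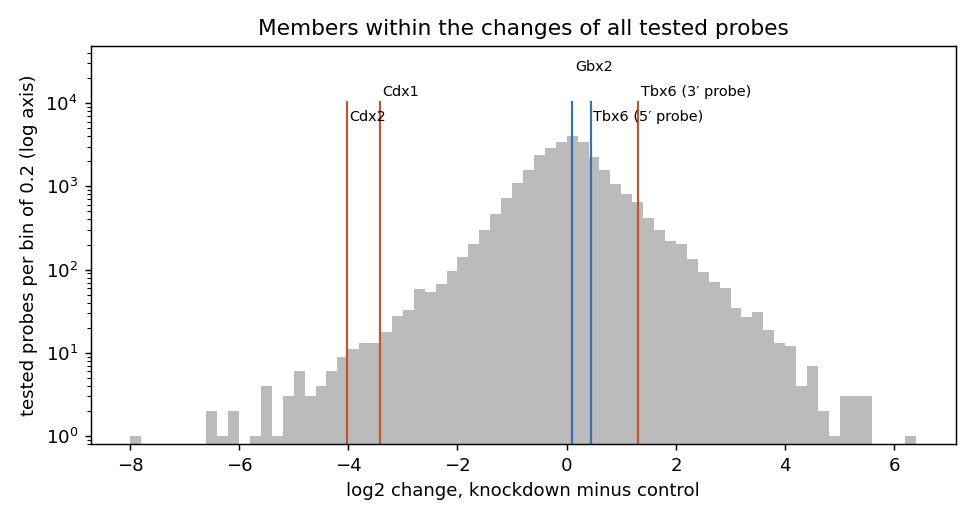
Number of tested probes per bin of log2 change (log vertical axis) for all 29077 tested probes, with vertical lines at the 5 tested member probes, orange where called and blue where not. Cdx1 and Cdx2 stand in the far lower tail, Gbx2 and the 5′ probe of Tbx6 near the centre, and the 3′ probe of Tbx6 on the upper slope.

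The wider axial progenitor and tail bud network moved both ways, with more genes lower than higher. Of its 27 listed genes 24 were tested, 15 were lower, 7 higher and 2 not called, with a median change of -0.53. Over all 14644 genes with a symbol 34.7% were lower and 30.9% higher, with a median of -0.02. Among the 7 higher genes of the list were Sp8, 2.42-fold, Cyp26a1, 2.41-fold, and Fgf8, 2.28-fold (limma adjusted p = 2.2e-06, 9.86e-06 and 2.13e-05). The Wnt-responsive zinc finger gene Sp5 was 43.5-fold lower, from 3.78 ± 0.08 to -1.66 ± 0.17 (limma adjusted p = 3.37e-08). The ligand genes Wnt3 and Wnt5b were lower by at least 6.39-fold and by 3.68-fold, at limma adjusted p values of 6.7e-08 and 3.1e-07. The at-least value for Wnt3, dim on all knockdown arrays, sets its control mean against the lowest signal well above background or its own, whichever is higher on each array, and with normexp and quantile normalization the fitted fold was 4.17. Wnt3a, the ligand most tied to Cdx and T in the tail bud, was well above background on no array and was not tested, nor were Fgf17 and Gdf11.

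Trunk Hox genes, which the Cdx factors activate in the embryo, were mostly lower. Of 16 tested among 19, 12 were lower, 1 higher and 3 not called, with a median change of -1.68. Over all genes with a symbol 34.7% were lower and 30.9% higher. Hoxd8 was 1.84-fold higher (limma adjusted p = 0.000111), and Hoxa6, Hoxb9 and Hoxc9 were not called. Hoxb5 was 13.1-fold, Hoxb6 8.98-fold and Hoxb4 4.35-fold lower (limma adjusted p = 7.69e-08, 1.2e-07 and 2.87e-07). The summed signal of the 16 genes, each relative to the 75th percentile of its array on a linear scale, was 62.6 to 75.7 in control and 15.7 to 16.8 in knockdown samples. Whether Cdx1 and Cdx2 have a part in the changes of the Hox genes was not tested.

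Genes of the primitive streak and presomitic mesoderm, the territory of T and Tbx6, moved both ways. Of 16 tested among 21, 6 were lower, 7 higher and 3 not called, with a median change of 0.01, beside 34.7% lower and 30.9% higher over all genes with a symbol. The Notch ligand Dll1, which Tbx6 activates in presomitic mesoderm, was 3.80-fold lower (limma adjusted p = 3.11e-07). The Notch target Nrarp was 3.42-fold lower (2.25-fold with normexp and quantile normalization), and Snai1, a driver of the epithelial to mesenchymal transition, 3.91-fold higher (limma adjusted p = 1.62e-06 and 1.08e-06). Mixl1, Mesp1, Gsc and Tbx18 were well above background on no array and Msgn1, a direct Tbx6 target, on 1. The summed signal of the 16 genes was 12 to 13.5 in control and 12.1 to 13.5 in knockdown samples.

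Beside Gbx2, 7 of 12 midbrain-hindbrain boundary genes were tested, 2 were lower and 3 higher, with a median change of 0.37. Irx2 and the ligand gene Wnt1 were both 3.26-fold lower, and Fgf8, the signal of the boundary and also of the tail bud, was 2.28-fold higher (limma adjusted p = 6.35e-07, 1.89e-06 and 2.13e-05). Beside Evx1, 7 of 8 genes of V0 interneurons and their progenitors were tested, 2 were lower and 3 higher, with the same median of 0.37. With 7 genes each, neither count is far from the 34.7% lower and 30.9% higher over all genes with a symbol. The progenitor factor Dbx1 was 7.68-fold higher and the factor Lhx5 6.31-fold lower (limma adjusted p = 7.7e-07 and 1.95e-06), or 4.11-fold and 3.53-fold with normexp and quantile normalization. Pax7 was lower too (limma adjusted p = 1.46e-05) but well above background on 1 knockdown array, so no exact fold is given. Evx2, a related V0 factor, was well above background on no array.

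Cdx2 also marks trophoblast and intestinal epithelium, so the markers of both were read beside its fall. Over all genes with a symbol 30.9% were higher and 34.7% lower. Of 10 tested trophoblast genes 5 were higher, 1 lower and 4 not called, with a median change of 0.40. Esx1 and Ascl2 were 3.86-fold and 2.82-fold higher and Tfap2c 1.85-fold lower (limma adjusted p = 1.61e-06, 2.88e-06 and 5.52e-06). Their summed signal was 183 to 210 in control and 332 to 379 in knockdown samples, with Hand1 and Tpbpa well above background on no array and Elf5 on 3. Most of that sum was Krt18, a keratin of simple epithelia in general, singled out after its values were seen, at 115 to 131 in control and 241 to 281 in knockdown samples. Without Krt18 the sum of the other 9 genes was 66.5 to 78.6 in control and 87.6 to 97.6 in knockdown samples. Of 10 tested gut endoderm genes 8 were higher and 2 lower, with a median of 1.07 and a summed signal of 5.12 to 5.88 in control and 7.37 to 8.15 in knockdown samples. Krt20 was 2.64-fold and the intestinal homeobox gene Isx, dim on all control arrays, at least 2.76-fold higher (limma adjusted p = 1.31e-06 and 4.5e-05). The fitted fold of Isx was 2.07 with normexp and quantile normalization. The 2 lower genes, which moved as Cdx2 did, were Lgals4, 1.37-fold, and Gpa33, 1.19-fold (limma adjusted p = 0.00234 and 0.0292). Cdh17, a target of Cdx2 in the intestine, and Muc2 were well above background on no array, and Fabp2 on 2. Cdx2 thus moved opposite to most called genes of either list, and what part these genes have in its change was not tested.

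**Figure D4:**
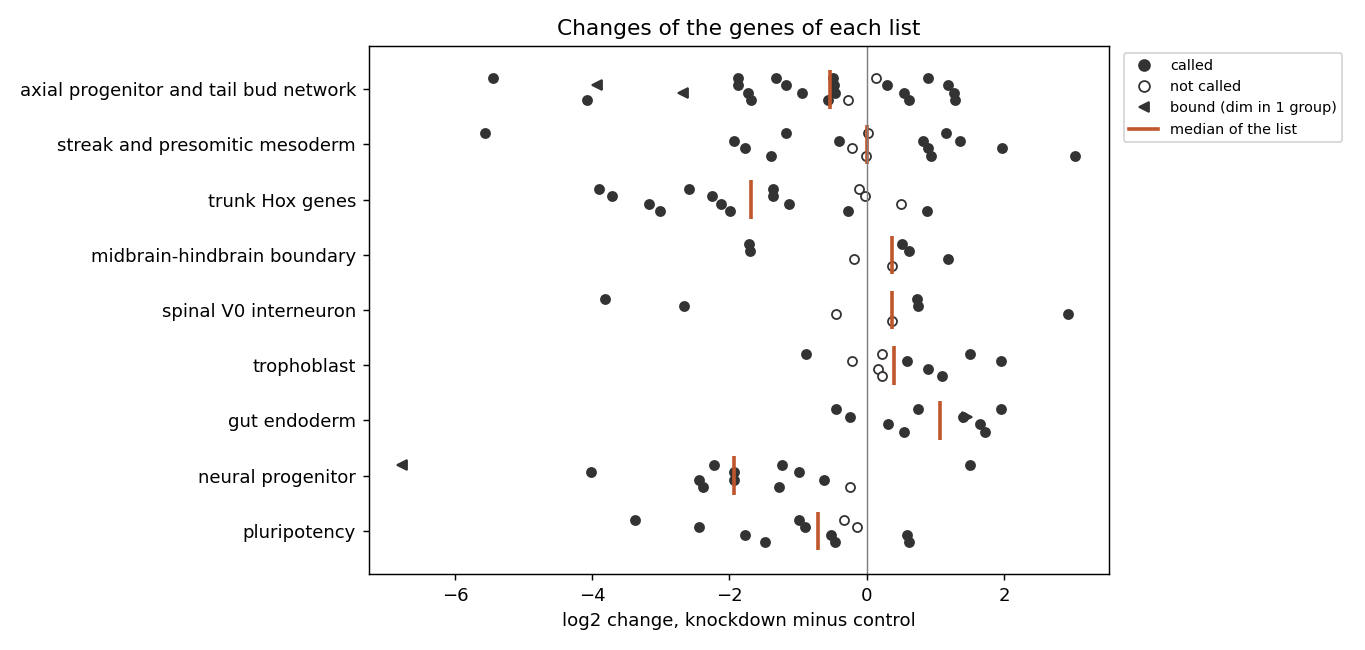
Log2 change (horizontal axis, knockdown minus control) of each tested gene of the 9 lists, filled where called and open where not, with triangles at the bound of genes dim in 1 group and orange bars at the median of each list. The trunk Hox and neural progenitor genes lie mostly below 0, with medians of -1.68 and -1.94, and the gut endoderm genes mostly above.

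The genes whose signal most resembled that of a member over the 8 arrays were found by Pearson correlation among 14640 genes, as a description without a test. The arrays form 2 groups, so for a gene that differs between them the correlation mainly restates that difference. For Cdx1 the closest were Wnt6 (0.9998), Zfp423 (0.9995) and Rbm4 (0.9994), and 2697 genes exceeded 0.95. For Cdx2 they were Pes1 (0.9995), Zic1 (0.9994) and Ncoa2 (0.9992), with 2567 genes above 0.95. The 3′ probe of Tbx6 was closest to Ankfy1 (0.9981), Itga7 (0.9975) and Pou3f1 (0.9974), with 1836 genes above 0.95. Gbx2 had no gene above 0.95, and its closest were Vkorc1l1 (0.945), Shf (0.944) and Myd88 (0.9286).

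Promoter sequences of RefSeq, on build GRCm38.p6 and from 250 bases before to 50 bases after the start site, were matched for 6 of the 7 genes, all but Cdx1. That of Cdx2 is shown, since Cdx2 is a member that fell and has a promoter entry, as its 250 bases before the start site at chr5:147307250-147307499 (minus strand, GRCm38.p6), with capitals at the octamer ATGCAAAT recognised by POU factors.
Cdx2: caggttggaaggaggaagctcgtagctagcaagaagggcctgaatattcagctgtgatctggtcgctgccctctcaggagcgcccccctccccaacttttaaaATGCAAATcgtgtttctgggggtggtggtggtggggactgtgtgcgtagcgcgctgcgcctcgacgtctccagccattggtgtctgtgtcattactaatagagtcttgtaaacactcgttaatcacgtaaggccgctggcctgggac

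The windows were searched on both strands for CAATAAA (CDX), CTTTGAT (TCF/LEF), GGTGTG (T-box) and the octamer, the last chosen after the sequences were seen. These letters occur in 4.6%, 3.73%, 19% and 1.74% of 32851 promoters of the same length, and CAATAAA overlaps the polyadenylation signal AATAAA. The octamer was found in the Cdx2 window, from base -147, in the Cdx4 window, from -93, and in the Evx1 window, on the opposite strand, from -126. The Evx1 window also held the CDX letters, from -230, and the T-box letters on the opposite strand, from -39. None of the 4 motifs occurred in the windows of Gbx2, T or Tbx6. The observed over expected CpG ratio was 0.861 for Gbx2, higher than in 84.2% of promoters, 0.731 for Cdx2, 0.71 for Evx1, 0.607 for T, 0.433 for Cdx4 and 0.286 for Tbx6, higher than in 40.2%. The genes that fell or rose and those that stayed dim are not separated by this ratio.

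**Figure D5:**
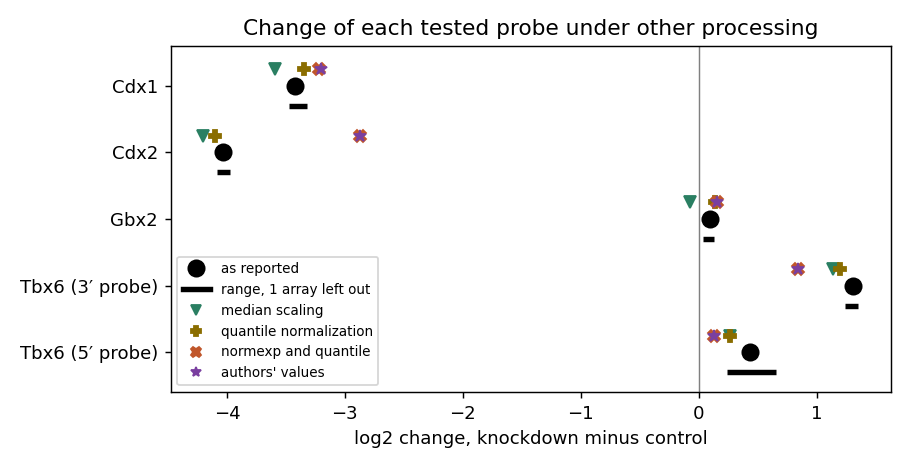
Log2 change (horizontal axis, knockdown minus control) of the 5 tested probes as reported (large black points), under 4 other kinds of processing (coloured symbols) and as the range over the 8 fits that leave out 1 array (black bars). Cdx1 stays between -3.59 and -3.20, the fall of Cdx2 shrinks to -2.87 with normexp correction, and Gbx2 crosses 0 under median scaling.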

How the data were processed

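The deposited scanner files hold spot intensity values that, per the file headers, were extracted with Agilent Feature Extraction 10.7.3.1 from arrays of design 028005 with background and spatial trend correction done array by array. RNA of each sample (100 ng, per the labels) was amplified from an oligo-dT primer and labelled with Cy3. The authors' deposited value table holds log2 values whose processing is not given in the sources used here. Its columns share a median of 7.1, correlate at 0.99999 with normexp (offset 50) and quantile values computed here, and served as an alternative.

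Outlier spots were removed, spots of a probe averaged, and log2 signals set relative to the 75th percentile of their array. All 8 arrays were fitted with limma 3.58.1 (lmFit, eBayes) in R 4.3.3, two-sided, with Benjamini-Hochberg adjustment over 29077 probes and a threshold of 0.05, after the fit was tested on simulated data. List genes are represented by their brightest tested probe. Named are all member probes, Dnajc2, the 3 called genes of smallest p per list and the 3 genes most like each member, except 1 gene that is not reported here. Psx1, of the trophoblast list, had no probe under that name. The members and lists were chosen with earlier results of these data known. Alternatives covered background correction, scaling, the filter on dim probes, slide and replicate blocks, shared numbers in deposited names and each array left out.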

Additional observations from a re-analysis of the deposited data

Results flagged for a closer look

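In 2 of 12 groups of 4 arrays examined, 1 sample stood apart from the other 3 by Dixon's criterion (gap over range above 0.829), which chance alone meets in about 1 group in 20. Cdx1 was highest in control 3, at 4.11 against 3.68 to 3.75 in the other control samples, with a gap over range of 0.834. The 3′ probe of Tbx6 was lowest in control 4, at -2.46 against -2.19 to -2.15, with a gap over range of 0.885. Both calls held when each array in turn was left out, with changes between -3.47 and -3.32 for Cdx1 and between 1.24 and 1.35 for Tbx6.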

How the results depend on the processing

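Under 20 alternatives Cdx1 and the 3′ probe of Tbx6 kept their direction and call, with changes from -3.59 to -3.20 and from 0.84 to 1.35. So did Cdx2 under the 19 that tested it, from -4.20 to -2.87. With only probes well above background on all 8 arrays Cdx2 was not tested, which left 1 member probe called lower. Leaving out 1 array gave 1 to 2 member probes called higher, the second being the 5′ probe of Tbx6, whose change ran from 0.24 to 0.66 and passed only without control 1 (0.66, limma adjusted p = 0.0373). Median scaling lowered the probes called higher from 8430 to 5600, took higher calls from 50.8% to 37.7% of all calls and the median change of all tested probes from 0.05 to -0.12, and put Gbx2 at -0.07. The difference between the changes of Cdx1 and Cdx2 reversed to -0.34 with normexp and quantile normalization and to -0.33 with the authors' values. Among the gut endoderm genes 1 in place of 2 was called lower under 12 alternatives.

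The deviations of same-numbered control and knockdown samples correlated between -0.191 and 0.114. Differently numbered samples of the 2 groups were not compared in this way, so whether the replicate numbers pair the samples is not known. With the replicate number as a block 15002 probes were called against 16589, and no member call changed. The deposited names give knockdown samples 1 and 2 a shared number, and 3 and 4 another, with the second of each pair marked TR, whose meaning is not stated, so whether the knockdown samples are 4 cultures or 2 is not known. With each such pair averaged 14232 probes were called, and with knockdown 1 and 3 alone, a choice made after seeing the data, 13399. Member calls were the same in both. Signal near background limits Cdx2 in knockdown samples, and Cdx4, Evx1 and T in all.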
